A study of Homo sapiens with 6 samples.

Results

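miR-320a, miR-484 and miR-877 reach Dicer without Drosha, the nuclease that cuts most miRNA hairpins out of their primary transcripts. The members were chosen by name, with the paralogs of miR-320a taken by family: hsa-miR-320a-3p, hsa-miR-320b, hsa-miR-320c, hsa-miR-320d, hsa-miR-320e, hsa-miR-484 and hsa-miR-877-5p, and all 7 are among the 832 miRNAs of the deposited table. Small RNA libraries were made from extracellular vesicles (EVs) of MDA-MB-231, a human triple-negative breast cancer line, without a genetic change (231 EV, n = 3) and after knockdown of ACO1 (231/ACO1 KD EV, labelled 231 ACO1KD EV, n = 3). The labels give the genotypes as WT and ACO1 knockdown, and both kinds of EVs were pelleted by ultracentrifugation from EV-free medium of nearly confluent cells, kept before that in DMEM with serum. ACO1 is a cytosolic aconitase that binds iron-responsive RNA elements when iron is low, and the comparison asks which EV miRNAs depend on it. How the knockdown cells were made, and whether they are a single clone, is not given in the sources used here, and libraries of small RNA hold no measure of ACO1 mRNA.

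The precursors of miR-320a and miR-484 are short transcripts of RNA polymerase II whose capped end is itself the end of the hairpin. They are exported through exportin 1 and cut by Dicer, and in miR-320a the cap keeps the 5p strand out of Argonaute, so that the 3p strand prevails. hsa-miR-320b, hsa-miR-320c, hsa-miR-320d and hsa-miR-320e are included by family, and how their precursors are made was not tested. miR-877 is a mirtron: the spliceosome releases a short intron, which is debranched and folds into a hairpin that Dicer can use. miR-320 is studied as a growth-restraining miRNA in breast and colon tumours, miR-484 as a regulator of mitochondrial fission, and both are also plentiful in serum and blood cells.

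The mature sequences are shown because the miR-320 members differ by so little that their reads are hard to tell apart. RefSeq (GRCh38.p14) gave the sequence of 6 of the 7, printed 5′ to 3′ with the seed, bases 2 to 8, in capitals. The one without an entry in the reference used here is hsa-miR-320a-3p, so its sequence, seed and position are not given.
hsa-miR-320b: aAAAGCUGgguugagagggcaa
hsa-miR-320c: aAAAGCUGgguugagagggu
hsa-miR-320d: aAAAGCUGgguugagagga
hsa-miR-320e: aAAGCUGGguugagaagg
hsa-miR-484: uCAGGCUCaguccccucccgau
hsa-miR-877-5p: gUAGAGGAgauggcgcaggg
Among the printed sequences, the seed AAAGCUG is shared by hsa-miR-320b, hsa-miR-320c and hsa-miR-320d, and hsa-miR-320a-3p could not be compared. Outside the family hsa-miR-4429 has this seed, and it is not among the miRNAs of the deposited table. Counted from base 1 of hsa-miR-320b, hsa-miR-320c carries C20U and ends there, and hsa-miR-320d carries G19A and ends there. hsa-miR-320e begins at base 2 of hsa-miR-320b, which moves its seed by 1 base, and carries G17A. The seed of hsa-miR-484 is shared by hsa-miR-3155a and hsa-miR-3155b, which are not among the miRNAs of the deposited table. No other miRNA of that table with a RefSeq sequence has the seed of hsa-miR-484 or hsa-miR-877-5p. Their GC content was 63.6% and 65.0%, against a median of 47.6% (quartiles 40.9% and 55.0%) over the 435 tested miRNAs with a RefSeq sequence.

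GENCODE places the precursors as follows. The hairpin MIR484 (ENSG00000283736.1) lies on the plus strand at chr16:15643294-15643372, within a UTR exon of NDE1, 27 bases after the start of the transcript that GENCODE 29 gives there. That annotated start is not the end of the hairpin, and the capped end of the precursor was not mapped here. The hairpin MIR877 (ENSG00000216101.3) lies on the plus strand at chr6:30584332-30584417 and is exactly intron 13 of ABCF1: in all 3 transcripts that span it, the intron begins and ends at the same bases as the hairpin. Its 86 bases are printed with both mature arms in capitals, because the arms reach the splice sites at either end.
MIR877: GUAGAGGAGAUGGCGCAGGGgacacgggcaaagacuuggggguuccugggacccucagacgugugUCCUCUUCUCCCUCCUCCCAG
The miR-320 paralogs are spread over several chromosomes. MIR320B1 (chr1:116671746-116671817), MIR320D1 (chr13:40727816-40727887) and MIR320D2 (chrX:140926160-140926231) overlap no other GENCODE gene. MIR320B2 (chr1:224257040-224257110) lies in an intron of NVL and MIR320E (chr19:46709282-46709354) in an intron of PRKD2, each on the strand of its host. MIR320C1 (chr18:21683518-21683589) and MIR320C2 (chr18:24321675-24321746) lie opposite introns of ABHD3 and OSBPL1A. hsa-miR-320b, hsa-miR-320c and hsa-miR-320d thus each come from a pair of hairpins whose mature reads are identical.

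CAUUG is the sequence of miR-33a through which the study has ACO1 bind. None of the 6 printed mature sequences holds CAUUG, which occurs in 41 of 2370 human mature sequences of the RefSeq table (1.73%), nor CAGUG, the loop of the iron-responsive element, which occurs in 4.77%. Among tetranucleotides known from EV sorting, GGAG occurs in hsa-miR-877-5p from base 6 (15.7% of mature sequences hold it), and hsa-miR-484 holds GGCU from base 4 (12.6%) and CCCU from base 13 (11.9%). Over the 435 tested miRNAs with a RefSeq sequence the shares were 4.14% for CAUUG, 6.67% for CAGUG, 7.36% for GGAG, 11.5% for GGCU and 9.20% for CCCU. Only the RNA strand was searched. These matches describe letters and do not show binding.

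Total counts were 224948 to 230562 in 231 EV and 67873 to 175924 in 231/ACO1 KD EV, with replicate 2 the shallowest. hsa-miR-21-5p, the most abundant miRNA, took 28.5% to 31.2% of all counts in 231 EV and 11.7% to 18.4% in 231/ACO1 KD EV, so every other miRNA has more room in a knockdown library. TMM scaling allows for this, with factors of 0.840 to 0.915 in 231 EV and 1.09 to 1.20 in 231/ACO1 KD EV. It put the median log2 fold change of all tested miRNAs at -0.03, where library totals put it at 0.32. 231/ACO1 KD EV replicate 3 stood apart: its counts differed from those of replicates 1 and 2 with a chi-square of 29.7 and 20.7 per degree of freedom, against 4.21 to 8.04 for the other pairs within a group. miRNAs of blood, endothelium and liver were present too: all 11 of that list had counts in every library, and together they made 22155 to 24561 TPM in 231 EV, against 33663 to 39108 TPM after knockdown. The labels call the cells epithelial. All 4 miRNAs listed for mesenchymal-like lines such as MDA-MB-231 were found in every library, with a summed level of 51301 to 58225 TPM in 231 EV, against 29359 to 48970 TPM after knockdown. The 3 epithelial ones were found in every library as well, at 658 to 733 TPM and 426 to 725 TPM in sum. Most of this was hsa-miR-205-5p, with means of 507 TPM in 231 EV and 331 TPM after knockdown. Its log2 fold change was -0.93 (Benjamini-Hochberg adjusted p = 0.00749 by the edgeR quasi-likelihood F-test). hsa-miR-141-3p was at -0.59, and hsa-miR-200c-3p, with 17.3 to 68.2 TPM, was at 0.51. Neither of these passed an adjusted p of 0.05.

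hsa-miR-320a-3p was by far the most abundant of the 7, and its mean level was lower in EVs of the knockdown cells, but neither its spread nor its test set the groups apart. hsa-miR-484 came next, with the knockdown libraries scattered on both sides of the controls. hsa-miR-320b, hsa-miR-320c and hsa-miR-877-5p were scarce and their folds are open in either direction, and hsa-miR-320d and hsa-miR-320e had a single read each. None of the 5 members that passed the filter (a count above 0 in at least 3 of 6 libraries) reached an adjusted p of 0.05 in the edgeR quasi-likelihood test, while 8.51% of all 517 tested miRNAs did. DESeq2 and limma on log2(TPM + 1) called none of the 5 either, against 7.93% and 14.5% of all tested. Nor did edgeR with library totals, against 13.7%. DESeq2 gave 3 of the 5 no adjusted p, so it could not call them, and its 7.93% counts every miRNA without one as not called. At an unadjusted p under 0.05, edgeR and DESeq2 each had 1 of the 5, hsa-miR-320a-3p, and limma had none, against 18.8%, 14.9% and 24.2% of all tested. The groups of all 5 overlapped, both in TPM and after TMM scaling, where 28.4% and 24.4% of the tested miRNAs had groups that did not overlap. The median log2 fold change of the 5 was -0.24, beside -0.03 for all tested, and 0.08 beside 0.32 with library totals. Both medians of the 5 are the value of hsa-miR-877-5p, which had 13 counts over the 6 libraries, so they do not measure a shift of the members.

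**Figure D1:**
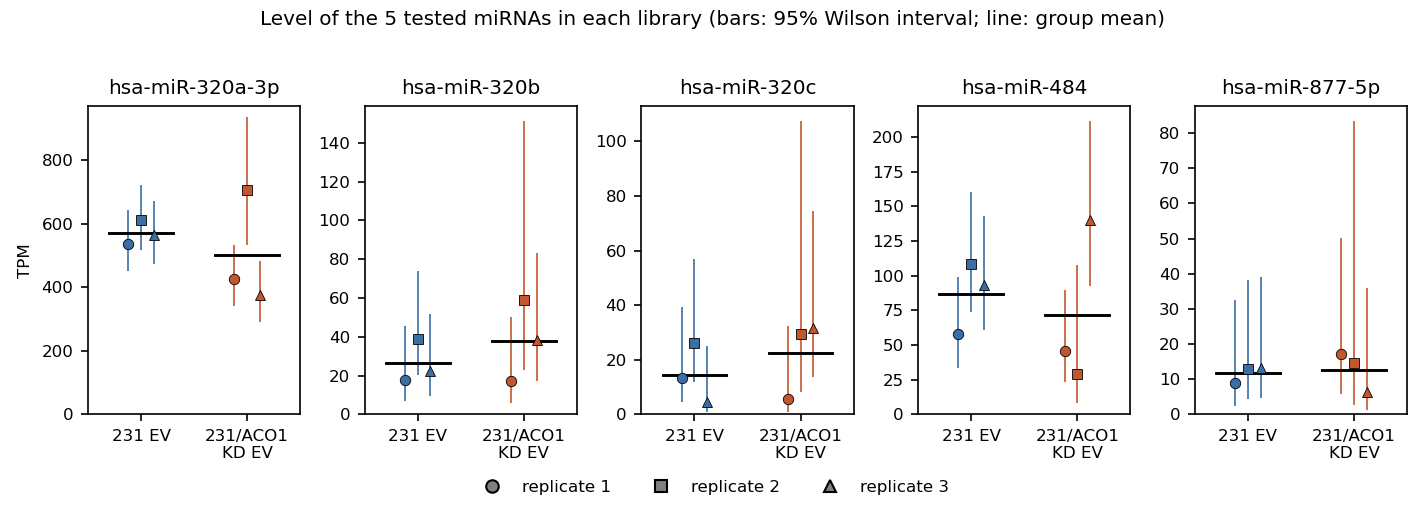
Level of the 5 tested miRNAs in TPM (y axes, linear, a scale for each miRNA) in the 3 libraries of 231 EV (blue) and the 3 of 231/ACO1 KD EV (orange). Symbols mark the replicate number, bars the 95% Wilson interval and black lines the group mean; hsa-miR-320a-3p in 231/ACO1 KD EV replicate 2 lies above all 231 EV libraries and the other knockdown libraries lie below them.

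hsa-miR-320a-3p ranked 98th of 832 by mean TPM. In replicates 1, 2 and 3 it had 121, 141 and 127 counts in the controls and 75, 48 and 59 counts in the knockdown libraries. As deposited, these are 538, 612 and 564 TPM in 231 EV, against 426, 707 and 375 TPM after knockdown. TPM is here the count as a share of all counts of the library, brought to the same sum in each, with no length term, so that less of a miRNA in the EVs and more of the others cannot be told apart. Replicates 1 and 3 of the knockdown lie below every control, and replicate 2 lies above every control. The 95% Wilson intervals of the knockdown libraries were 340 to 534, 533 to 937 and 291 to 484 TPM. They treat each read as a separate draw and so cover counting error only. The reads carry no molecular identifiers, so amplified copies cannot be told from separate molecules.

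The group means were 571 ± 37.3 TPM (SD, n = 3) in 231 EV, against 503 ± 179 TPM (SD, n = 3) after knockdown. The control libraries varied by 6.53%, less than the 8.80% that counting alone gives at their depth, and the knockdown libraries by 35.6% against 13.1%, values of 3 libraries each whose difference was not tested. After TMM scaling the controls had 588 to 681 CPM and the knockdown libraries 385, 591 and 343 CPM, so that only replicate 2 still reached into the controls. The log2 fold change was -0.59 with a standard error of 0.25 (95% interval -1.07 to -0.10, Benjamini-Hochberg adjusted p = 0.121 by the edgeR quasi-likelihood F-test). This is a level of 0.665 times that of 231 EV (interval 0.475 to 0.931). With library totals the log2 fold change was -0.23 (adjusted p = 0.658, edgeR quasi-likelihood as above). An exact permutation test of log2(TPM + 1), two-sided, gave p = 0.4 for hsa-miR-320a-3p, where 3 libraries against 3 allow no p under 0.1.

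1 library decides whether hsa-miR-320a-3p is called. Without 231/ACO1 KD EV replicate 2 its log2 fold change was -0.82 with a standard error of 0.24 (Benjamini-Hochberg adjusted p = 0.0147 by the edgeR quasi-likelihood F-test), in a fit that called 7.58% of 501 tested miRNAs and 5.19% as lower. With library totals and without the same replicate it was -0.51 (adjusted p = 0.174, edgeR quasi-likelihood as above). Without any other single library the adjusted p stayed between 0.212 and 0.369 by that test. Replicate 2 is the library with the fewest counts, and its part in the result beyond this was not tested.

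**Figure D2:**
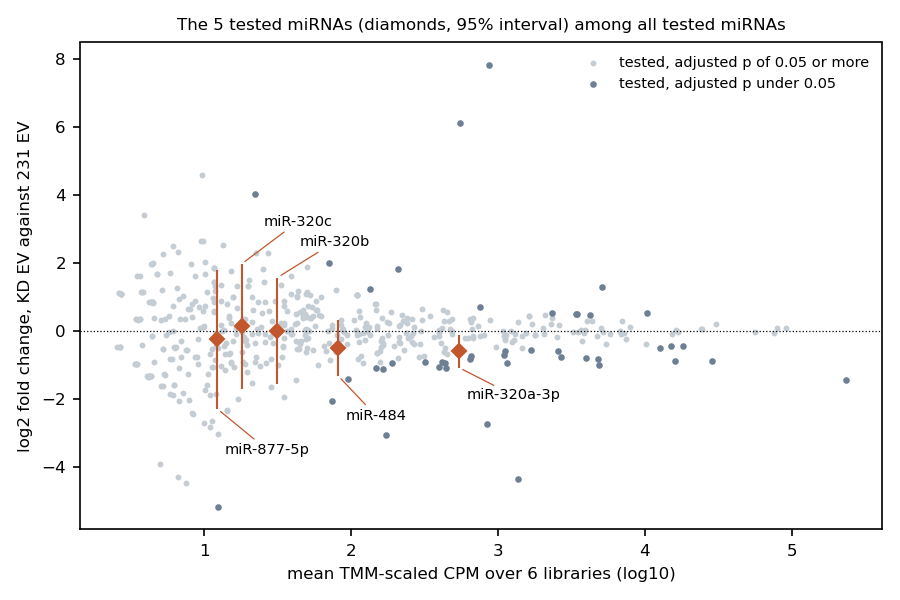
Log2 fold change of 231/ACO1 KD EV against 231 EV (y axis) by mean TMM-scaled CPM over the 6 libraries (x axis, log10) for the 517 tested miRNAs. Dark points passed an adjusted p of 0.05, and orange diamonds with 95% intervals are the 5 tested miRNAs described here, none of which passed; the interval narrows from hsa-miR-877-5p on the left to hsa-miR-320a-3p on the right.

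The passenger strand hsa-miR-320a-5p was close to absent. Against 571 reads of hsa-miR-320a-3p over the 6 libraries it had 5, of which 231 EV replicate 1 gave 1 and 231/ACO1 KD EV replicates 1 and 3 gave 3 and 1. The 3p strand made up 99.1% of the reads of both arms (95% Wilson interval 98.0% to 99.6%), 99.7% in 231 EV (98.56% to 99.95%) and 97.8% in 231/ACO1 KD EV (94.6% to 99.2%). The group intervals pool the reads of 3 libraries each and leave out the spread between libraries. They overlap, which is no test of the groups, and the difference rests on 4 reads.

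hsa-miR-320a-3p also made up most of the miR-320 family. It held 89.0% ± 4.73 (SD, n = 3) of the reads of all 5 miR-320 members in 231/ACO1 KD EV and 93.2% ± 2.60 (SD, n = 3) in 231 EV. A share within a library does not depend on how libraries are scaled, and the difference of -4.25 percentage points was smaller than the spread in the knockdown group (two-sided exact permutation p = 0.2, adjusted over the 5 shares p = 0.75). Because reads of near-identical members may have been assigned to either of them, the members were also summed. The family had 573, 677 and 591 TPM in 231 EV, against 455, 796 and 445 TPM after knockdown, which is 0.0445% to 0.0796% of a library. The sum keeps the order of hsa-miR-320a-3p: knockdown replicates 1 and 3 are lowest and knockdown replicate 2 is highest. The group means were 614 ± 55.2 TPM (SD, n = 3) and 565 ± 200 TPM (SD, n = 3), a ratio of 0.921, and 0.711 after TMM scaling.

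hsa-miR-320b had 4, 9 and 5 counts in the controls and 3, 4 and 6 counts in the knockdown libraries. These are 17.8, 39.0 and 22.2 TPM against 17.1, 58.9 and 38.1 TPM. The groups interleave, and the log2 fold change of 0.01 (standard error 0.80, 95% interval -1.55 to 1.57, Benjamini-Hochberg adjusted p = 0.996 by the edgeR quasi-likelihood F-test) leaves the direction open. hsa-miR-320c had 3, 6 and 1 counts in the controls and 1, 2 and 5 counts in the knockdown libraries, or 13.3, 26.0 and 4.44 TPM against 5.68, 29.5 and 31.8 TPM. Both groups cover nearly the same range. The fitted change on the log2 scale was 0.14 (SE 0.93, 95% interval -1.68 to 1.97, adjusted p = 0.956, edgeR quasi-likelihood as above). In the miR-320 reads, the mean share of hsa-miR-320b was 4.21% in 231 EV and 6.58% in 231/ACO1 KD EV, and that of hsa-miR-320c was 2.31% and 4.03% (two-sided exact permutation p = 0.3 and p = 0.5, both n = 3 per group).

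hsa-miR-320d had 1 read, in 231/ACO1 KD EV replicate 1, and hsa-miR-320e had 1 read, in 231 EV replicate 1. Over a group, a count of 0 allows up to 3 counts, which is 4.41 TPM in 231 EV, against 7.48 TPM after knockdown. The observed counts of both miRNAs are under that limit in both groups, though 1 read allows a higher level than a count of 0 does. No fold is therefore given, and these libraries are too shallow to show a difference in either.

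hsa-miR-484 ranked 208th of 832 by mean TPM. It had 13, 25 and 21 counts in the controls and 8, 2 and 22 counts in the knockdown libraries, or 57.8, 108 and 93.3 TPM against 45.5, 29.5 and 140 TPM. Knockdown replicates 1 and 2 lie below every control, and replicate 3, the library that stood apart over all miRNAs, lies above every control. The means were 86.5 ± 26.0 TPM (SD, n = 3) in 231 EV, against 71.6 ± 59.6 TPM (SD, n = 3) after knockdown. The controls varied by 30.05% where counting gives 23.4%, and the knockdown libraries by 83.3% where counting gives 47.3%. The log2 fold change was -0.48 (standard error 0.42, 95% interval -1.31 to 0.34, Benjamini-Hochberg adjusted p = 0.654 by the edgeR quasi-likelihood F-test), and the exact permutation test, two-sided, gave p = 0.6. Without 231/ACO1 KD EV replicate 3 the log2 fold change was -1.43 (adjusted p = 0.0859, edgeR quasi-likelihood as above), and it was -1.08 with library totals in addition (adjusted p = 0.195, edgeR quasi-likelihood as above). Without 231/ACO1 KD EV replicate 1 or 2 it was -0.12 and -0.23, and without 231 EV replicate 2 it was -0.31.

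**Figure D3:**
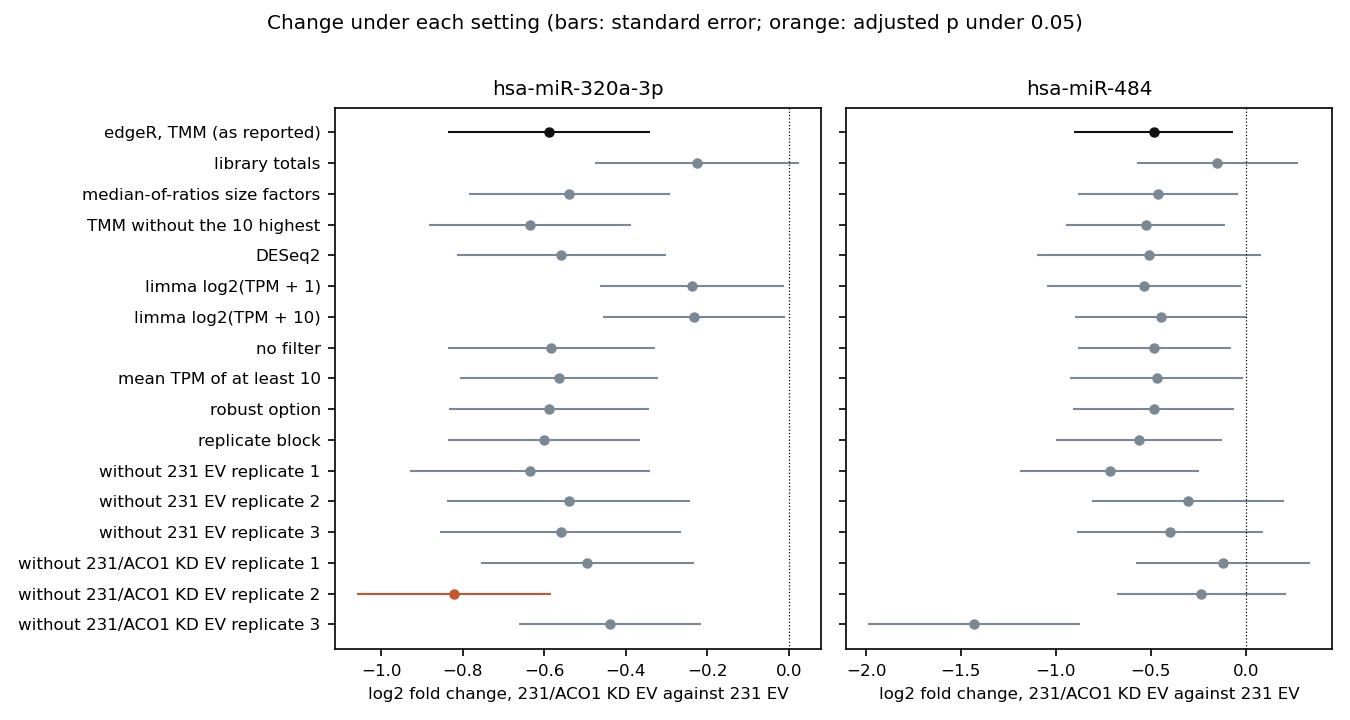
Log2 fold change of 231/ACO1 KD EV against 231 EV (x axes, a scale for each miRNA) for hsa-miR-320a-3p and hsa-miR-484 under each setting, with the standard error as bars. All points lie below 0, and the single orange point, hsa-miR-320a-3p at -0.82 without 231/ACO1 KD EV replicate 2, is the only fit with an adjusted p under 0.05.

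The most abundant members, hsa-miR-320a-3p and hsa-miR-484, stood in different orders across the libraries. This comparison was chosen after the values had been seen. hsa-miR-484 made up 9.70%, 15.1% and 14.2% of the reads of both in 231 EV replicates 1, 2 and 3. In 231/ACO1 KD EV it made up 9.64% in replicate 1 (95% Wilson interval 4.97% to 17.9%), 4% in replicate 2 (1.10% to 13.5%) and 27.2% in replicate 3 (18.7% to 37.7%). The intervals of knockdown replicates 2 and 3 do not overlap. The control values lie between their values of 4% and 27.2%, and the 9.70% of 231 EV replicate 1 lies within the interval of knockdown replicate 2. The group means, 13.0% and 13.6%, differed by far less than the spread of the knockdown libraries (two-sided exact permutation p = 1 for the groups of 3). Over the 6 libraries the log2(CPM + 1) values of hsa-miR-320a-3p and hsa-miR-484, after TMM scaling, had a Pearson's r of 0.03.

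**Figure D4:**
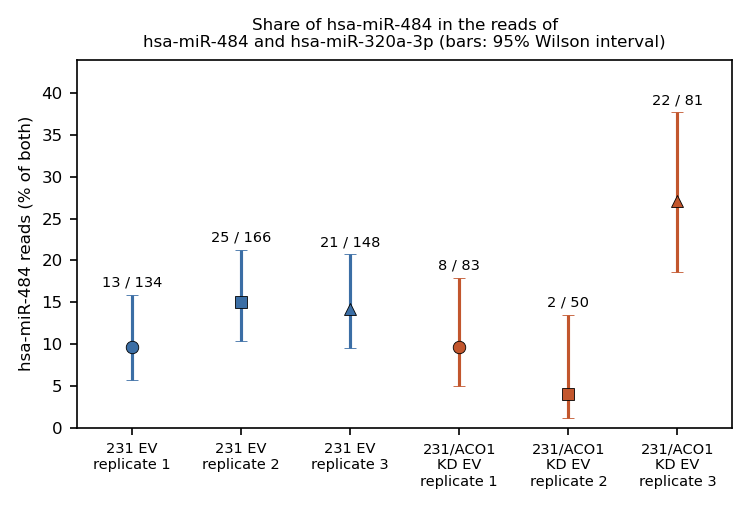
Share of hsa-miR-484 (y axis, percent) in the summed reads of hsa-miR-484 and hsa-miR-320a-3p in each of the 6 libraries, with 95% Wilson intervals and the counts behind each value above the bar. The control libraries lie between 9.70% and 15.1%, and knockdown replicates 2 and 3 lie at 4% and 27.2%.

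hsa-miR-877-5p, the mirtron, had 2, 3 and 3 counts in the controls and 3, 1 and 1 counts in the knockdown libraries. These are 8.89, 13.0 and 13.3 TPM against 17.1, 14.7 and 6.36 TPM. It was read at a low level in all 6 libraries, with means of 11.7 ± 2.48 TPM and 12.7 ± 5.63 TPM (SD, n = 3 each) and groups that interleave. The log2 fold change of -0.24 (standard error 1.04, 95% interval -2.28 to 1.80, Benjamini-Hochberg adjusted p = 0.927 by the edgeR quasi-likelihood F-test) has an interval that spans rises and falls of several fold. The other mirtrons looked up were scarcer still: of a list of 10 further hairpins annotated as mirtrons, 5 mature miRNAs were present, none with more than 6 counts over the 6 libraries. The only one of this list tested, hsa-miR-1228-3p, had counts of 0, 1 and 0 against 2, 0 and 1 and was not called. Mirtrons outside this list were not looked up. The other arm, hsa-miR-877-3p, is not among the miRNAs of the deposited table, so the arms could not be compared.

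In 231 EV the order of levels was hsa-miR-320a-3p, hsa-miR-484, hsa-miR-320b, hsa-miR-320c and hsa-miR-877-5p by mean TPM. The ranges of the first 3 did not overlap, while the range of hsa-miR-320c overlapped those of hsa-miR-320b and hsa-miR-877-5p. In 231/ACO1 KD EV the order was the same, but only hsa-miR-320a-3p stood clear of its neighbour. In replicate 2 hsa-miR-484 was at 29.5 TPM, where hsa-miR-320b had 58.9 TPM. These are 2 and 4 counts, with 95% Wilson intervals that overlap (8.08 to 107 TPM and 22.9 to 152 TPM), so their order in that library is not settled. All levels are on the TPM scale without a length term, and ligation and amplification can favour 1 sequence over another.

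Among the 224 other miRNAs with a mean count of at least 10, those most like hsa-miR-320a-3p over the 6 libraries were hsa-miR-146b-5p, hsa-miR-183-5p and hsa-miR-421, with a Pearson's r of 0.94, 0.91 and 0.88 on the log2(CPM + 1) scale after TMM scaling. Those most like hsa-miR-484 were hsa-miR-26a-5p, hsa-miR-200a-3p and hsa-miR-374a-5p (0.96, 0.95 and 0.94), and those most like hsa-miR-877-5p were hsa-miR-191-5p, hsa-miR-122-5p and hsa-miR-99b-5p (0.93, 0.91 and 0.86), the last on only 1 to 3 counts of hsa-miR-877-5p per library. These are the highest of 224 values over 6 points that share libraries and scaling, and they are given as a description.

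Since miR-320 and miR-484 also occur in serum and blood, the miRNAs of those sources are set beside them. Of the 11, 6 passed an adjusted p of 0.05 in the edgeR test, 2 lower and 4 higher in 231/ACO1 KD EV, where 8.51% of all tested miRNAs passed. The lower ones, hsa-miR-451a and hsa-miR-486-5p, mark red cells, and their log2 fold changes were -0.94 and -1.08. The other red-cell miRNAs of the list, hsa-miR-144-3p and hsa-miR-144-5p, were at -0.33 and -0.48 and did not pass. The higher ones included hsa-miR-126-3p of endothelium, the most abundant of the list, at 0.52. Their part in the values of hsa-miR-320a-3p and hsa-miR-484 was not tested.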

How the data were processed

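Small RNA libraries of EVs (3 of 231 EV, 3 of 231/ACO1 KD EV) were sequenced as 50 bp single-end reads. The authors trimmed the reads, kept 18 to 32 nt, removed Rfam matches and matched the rest to miRBase. They deposited raw counts per miRNA and TPM values (counts as shares of the library total, to within 4.99e-05 TPM). The labels name Bowtie2, StringTie and hg38. How reads that match several miR-320 members were assigned is not given in the sources used here. Nothing says that libraries came from separate cultures, so p-values measure the spread between these libraries, which may be technical.

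Counts were scaled by TMM and tested with the quasi-likelihood F-test of edgeR 4.0.16 (R 4.3.3) with no covariates and Benjamini-Hochberg adjustment over 517 miRNAs, those with reads in 3 or more of the 6 libraries. The biological coefficient of variation was 20.8%, and all miRNAs share 1 quasi-dispersion, so p-values are too small for miRNAs of larger spread. Standard errors and 95% intervals come from the F statistic. Single values were compared by exact permutation tests. The edgeR, DESeq2 and limma fits were run on simulated counts with known changes and 1 shared dispersion. Recovery of the changes was required of edgeR only, for miRNAs with a higher mean count than hsa-miR-320b, hsa-miR-320c and hsa-miR-877-5p have. The permutation tests were not checked in this way. Alternatives were library totals, median-of-ratios size factors, TMM without the 10 highest miRNAs, DESeq2 1.42.0, limma 3.58.1 with pseudocounts of 1 and 10, other filters, edgeR's robust option, a replicate block and each library left out. The miRNAs named are the 7 members, their other arms, listed mirtrons, marker lists and, for likeness, the 3 of highest r. hsa-miR-1228-3p, hsa-miR-141-3p, hsa-miR-144-3p, hsa-miR-144-5p, hsa-miR-200c-3p, hsa-miR-205-5p, hsa-miR-451a and hsa-miR-486-5p were named after their values were seen. The members and lists were chosen with earlier results of these data known. Sequences are from RefSeq (GRCh38.p14) and gene features from GENCODE 29, both on GRCh38 and counted from 1.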

Additional observations from a re-analysis of the deposited data

How the results depend on the processing

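The direction of hsa-miR-320a-3p and hsa-miR-484 was below 0 in each of the 17 alternatives run for each, and hsa-miR-320a-3p passed an adjusted p of 0.05 in 1 of them, without 231/ACO1 KD EV replicate 2 (log2 fold change -0.82, 1 member called in place of 0). Its adjusted p went from 0.0147 to 0.658 and that of hsa-miR-484 from 0.0859 to 0.954 (edgeR's quasi-likelihood method, DESeq2 or limma, each with Benjamini-Hochberg adjustment). Across the fits without 1 library the log2 fold change went from -0.82 to -0.44 for hsa-miR-320a-3p, from -1.43 to -0.12 for hsa-miR-484, from -0.26 to 0.44 for hsa-miR-320b, from -0.51 to 0.82 for hsa-miR-320c and from -0.66 to 0.12 for hsa-miR-877-5p, and the number called from 0 to 1. hsa-miR-320b turned to -0.032 with TMM without the 10 highest. hsa-miR-877-5p turned to 0.081 with library totals, 0.024 with limma and a pseudocount of 1 and 0.037 with a pseudocount of 10. These turns are of miRNAs with 1 to 9 counts per library, and the cause was not tested. DESeq2 gave no adjusted p for 3 of the 5. The ratio of the summed miR-320 level was 0.711 to 1.02 over 8 alternatives, against 0.921 in TPM. Without 1 library, the difference in the share of hsa-miR-320a-3p among miR-320 reads went from -6.64 to -1.90 percentage points and that in the share of hsa-miR-484 from -6.16 to 5.42. These shares without 1 library, and library totals without knockdown replicate 2 or 3, were chosen after seeing the data. hsa-miR-320d and hsa-miR-320e could be fitted only without a filter.

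The labels give replicate numbers and do not say whether libraries of the same number were paired. Deviations of same-numbered libraries correlated at 0.11, 0.12 and 0.0005, and those of differently numbered libraries at -0.166 to 0.049. Deviations from means of 3 libraries cannot show whether a pairing or a shared batch exists. With a replicate block, hsa-miR-320a-3p was at -0.60 (adjusted p = 0.0902, edgeR quasi-likelihood) and hsa-miR-484 at -0.56 (adjusted p = 0.646, edgeR quasi-likelihood), and 0 members were called. For the other tested members the block changed no call.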
